A study of Mus musculus with 2 samples.

Results

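The replication-type histone genes encode the linker histone H1 and the core histones H2A, H2B, H3 and H4 that package newly copied DNA. They were taken here as every gene of the count tables whose symbol begins with Hist, a cluster number from 1 to 4 and the letter h. The rule gave 67 of the 32285 genes, of which 6 encode H1, 18 H2A, 18 H2B, 12 H3 and 13 H4. By cluster, 54 lie in Hist1 on chromosome 13, 10 in Hist2 on chromosome 3, 2 in Hist3 on chromosome 11 and 1 (Hist4h4) on chromosome 6. The cells came from the cortex of male mice 4 months old, either Fam69c wildtype or Fam69c knockout, and cortices were pooled by genotype before dissociation, staining with the dead-cell dye 7-AAD and flow sorting. Each genotype gave 1 library by the 10x Genomics droplet method, which reads the 3′ ends of polyadenylated RNA. The sources used here do not give how the knockout allele was made, or whether the 7 mice named in the labels are the number per genotype. With 1 library per genotype no difference between libraries has a replicate check, no test was run, and genotype and pool cannot be told apart.

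Most mRNAs end in a poly(A) tail, whereas the mRNA of a replication-type histone normally ends just after a short hairpin, the stem-loop, which the stem-loop binding protein (Slbp) holds. These genes are transcribed in S phase under Npat, and their mRNA is degraded when DNA synthesis stops. A poly(A)-capture assay therefore sees the minority of histone transcripts that carry a tail, or that are primed inside the message, and a level below is a level of captured transcripts. In the adult brain dividing cells are rare and include the neuroblast lineage, while replication-independent histone variants such as H3f3a and H2afz supply histones outside S phase.

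The kept cells numbered 4940 in wildtype and 7032 in knockout, with 47489245 and 61971469 unique molecular identifiers (UMIs, each 1 captured transcript) and a median of 8570 and 8438 UMIs per cell. The libraries shared 10 cell barcodes among these cells. The targeted gene, listed as Dipk1c, had 1535 UMIs in the wildtype library, or 32.3 CPM (a gene's UMIs scaled to 1e+06 UMIs in all), and 1276 UMIs or 20.6 CPM in the library labelled knockout, a check of the label that is open because the deleted part is not given. A cell was called cycling with at least 20 of 60 cell cycle genes detected (30 of mitosis and G2, 30 of S phase, none of them a member) and non-cycling with at most 9. A cell was given a type with at least 3 of that type's 8 markers detected and a lead of 2 over the next type (7 markers were in the files for monocytes), and is otherwise called ungated. Levels are CPM of UMIs summed over cells, and every interval is an exact 95% interval that covers counting error only.

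The stem-loop was found in an annotated transcript of 46 of the 67 members, in 8 sequences (GENCODE M21 transcripts, GRCm38). Among 21901 protein-coding genes 68 held it anywhere in a transcript, or 0.310%, and 22 of the 68 were not members. For members it was searched after the stop codon where one is annotated. Below, capitals mark the stem-loop and lower case its flanks, in the sense of the mRNA. The first 4 sequences are from members with higher levels in cycling neuroblasts than the last 5, so that the hairpins can be compared. Members of both groups were also seen in non-cycling cells. In non-cycling neuroblasts of wildtype and knockout, Hist1h4d of the first group was at 69.9 and 58.7 CPM. Hist1h4h of the last group was at 35.5 and 15.8 CPM there.
Hist1h2ae: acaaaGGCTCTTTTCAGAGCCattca
Hist1h2ab: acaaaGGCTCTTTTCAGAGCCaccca
Hist1h3c: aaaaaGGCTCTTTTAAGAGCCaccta
Hist1h4d: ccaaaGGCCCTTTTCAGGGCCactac
Hist1h1c: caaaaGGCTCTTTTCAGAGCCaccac
Hist1h1d: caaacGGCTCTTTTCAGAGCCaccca
Hist3h2a: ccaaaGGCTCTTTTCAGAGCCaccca
Hist3h2ba: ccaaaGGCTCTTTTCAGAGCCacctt
Hist1h4h: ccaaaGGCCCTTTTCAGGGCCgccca
The windows lie at chr13:23570663-23570688, minus strand for Hist1h2ae, at chr13:23751567-23751592, plus strand for Hist1h2ab, at chr13:23745042-23745067, minus strand for Hist1h3c and at chr13:23581945-23581970, plus strand for Hist1h4d. They lie at chr13:23739507-23739532, plus strand for Hist1h1c, at chr13:23555782-23555807, plus strand for Hist1h1d, at chr11:58955167-58955192, plus strand for Hist3h2a, at chr11:58949344-58949369, plus strand for Hist3h2ba and at chr13:23531453-23531478, plus strand for Hist1h4h. All 9 are in the 3′ UTR. The hairpin of Hist1h2ae, Hist1h2ab, Hist1h1c, Hist1h1d, Hist3h2a and Hist3h2ba is the same, and 26 of the 46 members carry it. Hist1h4d and Hist1h4h share another, which 7 members carry, all of them H4. Members of both groups thus shared hairpin letters. What differed between members was the annotated length after the hairpin, from 3 to 4884 bases with a median of 91. It was 151 bases in Hist1h2ae, 11 in Hist1h2ab, 74 in Hist1h3c and 770 in Hist1h4d. It was 840 bases in Hist1h1c, 4884 in Hist1h1d, 1643 in Hist3h2a, 169 in Hist3h2ba and 46 in Hist1h4h.

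RefSeq promoters (GRCm38.p6, 250 bases before to 50 after the start) were matched for 61 members. Histone promoters are known for CCAAT boxes, for the octamer that Pou2f1 binds in H2B genes and for TATA boxes, so these 3 motifs were searched on both strands. CCAAT was in 52 of the 61 members and in 37.4% of 32851 promoters of all genes. By histone, it was in 5 of 5 H1, 18 of 18 H2A, 16 of 16 H2B and 10 of 10 H3 members but in 3 of 12 H4 members. The octamer ATTTGCAT was in 13 members, 7 of them H2A and 6 H2B, and in 1.74% of all promoters. TATAAA was in 34 members and in 13.6% of all promoters. The 150 bases before the start are shown for 4 members, with these motifs on either strand in capitals: Hist1h1b and Hist1h2ae as members high in cycling cells, Hist3h2ba as a member high in non-cycling neuroblasts, and Hist1h4h as an H4 member with none of the 3.
Hist1h1b: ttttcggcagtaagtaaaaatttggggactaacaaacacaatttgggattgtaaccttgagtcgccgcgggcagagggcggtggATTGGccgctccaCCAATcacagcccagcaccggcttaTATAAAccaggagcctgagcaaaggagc
Hist1h2ae: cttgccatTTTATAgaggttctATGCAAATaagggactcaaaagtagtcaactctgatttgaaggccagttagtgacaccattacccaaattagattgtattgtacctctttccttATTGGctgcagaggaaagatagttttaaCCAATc
Hist3h2ba: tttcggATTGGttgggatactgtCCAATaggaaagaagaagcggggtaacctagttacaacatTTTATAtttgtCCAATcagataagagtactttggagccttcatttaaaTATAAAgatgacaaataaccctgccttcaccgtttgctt
Hist1h4h: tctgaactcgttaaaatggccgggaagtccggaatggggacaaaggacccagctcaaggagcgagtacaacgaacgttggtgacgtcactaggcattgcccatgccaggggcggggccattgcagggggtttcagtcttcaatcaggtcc
These lie at chr13:21780626-21780775 on the minus strand, chr13:23571221-23571370 on the minus strand, chr11:58948761-58948910 on the plus strand and chr13:23530894-23531043 on the plus strand, in that order. In 12 pairs an H2A and an H2B member stood head to head with their starts within 400 bases, so their windows overlap and are not independent, and the octamer in the Hist1h2ae window lies between Hist1h2ae and Hist1h2bg. A match is a description of letters, not a site. CCAAT was in 32 of 34 members at least 2-fold higher in cycling than in non-cycling neuroblasts of both libraries and in 6 of 6 members that were not, so these letters did not separate the levels described next.

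In the kept cells 63 of the 67 members had a UMI, and Hist1h4m, Hist1h2bq, Hist1h2ba and Hist1h2aa had none. Of these, 56 had at least 50 UMIs over both libraries and are given below with their values. The other 7 had 3 to 45 UMIs. Of these Hist1h4b was at 6.25 and 1.56 CPM in cycling neuroblasts, Hist1h4f at 4.46 and 2.19 CPM, Hist1h3h at 4.02 and 0.313 CPM and Hist1h2ah at 2.68 and 1.25 CPM. The last 3, named after their values were seen, were Hist1h1t, Hist1h2ao and Hist2h2aa2. The members gave 60856 UMIs in wildtype and 71444 in knockout, or 1281 and 1153 CPM over all kept cells. Hist1h2bc, an H2B gene, gave 25.9% of all member UMIs, Hist1h1c 9.91%, Hist1h1e 8.73% and Hist1h2ae 7.13%.

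Cycling cells were rare and rich in histone transcripts. They were 125 cells (2.53%) in wildtype and 215 cells (3.06%) in knockout, and they held 42.9% and 36.4% of the member UMIs. Their summed level was 8062 CPM (95% interval 7965 to 8161) in wildtype against 769.6 CPM (95% interval 761 to 778) in non-cycling cells, a ratio of 10.5 (95% interval 10.3 to 10.6). In knockout it was 5499.6 CPM (95% interval 5433 to 5567) against 787 CPM (95% interval 779.6 to 794), a ratio of 6.99 (95% interval 6.88 to 7.10). Hist1h2bc weighed most on this ratio. Without it, an alternative added after seeing the data, the ratio was 16.5 in wildtype and 12.7 in knockout. Of the 57 members with at least 20 UMIs in the wildtype cells compared, 50 were at least 2-fold higher in cycling cells, where 17.0% of all genes were. In knockout these were 49 of 56 members and 16.4% of all genes. The median log2 ratio was 4.88 and 4.69 over the members, beside -0.18 and -0.26 over all genes. Cycling cells were also deeper, with a median of 25883 and 20367 UMIs against 8094 and 8223. Over the cells with at least 3000 UMIs, each thinned to 3000 after gating, the ratios were 10.1 and 7.06. Thinning evens the weight of cells but leaves the gate as it was, so the part of depth was not tested.

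**Figure D1:**
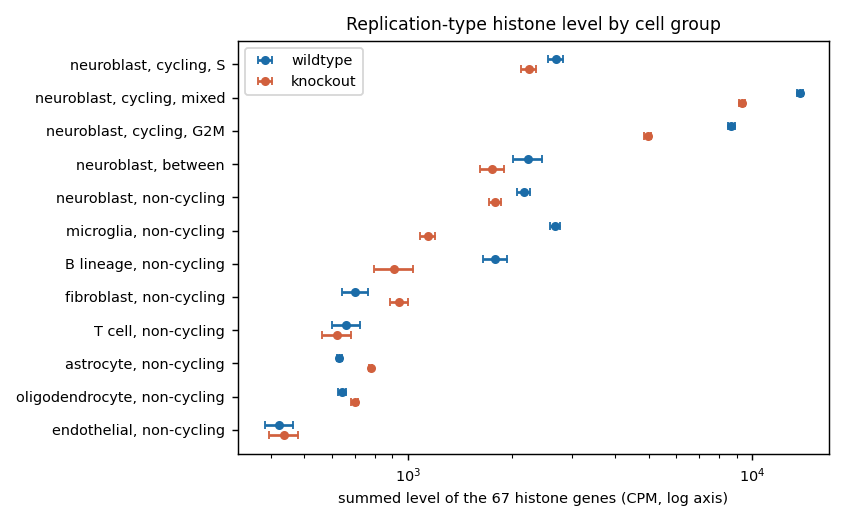
Summed level of the 67 members in CPM (log axis) for groups of cells, with the wildtype library in blue and the knockout library in orange; bars are exact 95% Poisson intervals and cover counting error only. Cycling neuroblast-gated cells with balanced S and G2 genes stand highest, at 13729 CPM in wildtype and 9327 in knockout, and endothelial cells lowest, at 422 and 436.

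Most cycling cells carried neuroblast markers such as Dcx, Dlx2 and Sox11: 92 of 125 in wildtype and 155 of 215 in knockout. Another 28 and 40 were ungated, 4 and 12 were astrocyte-gated, and 0 and 1 microglia-gated. The neuroblast gate therefore allows a comparison within 1 type, with 109 and 226 non-cycling cells. Mki67, a marker of dividing cells, was at 1068 and 732 CPM in the cycling neuroblasts and at 1.11 and 0 CPM in the non-cycling ones. It is a gene of the cycling gate, so the gate partly fixed this contrast. The summed histone level was 9077 CPM (95% interval 8953 to 9203) against 2165 CPM (95% interval 2069.7 to 2263) in wildtype, a ratio of 4.19 (95% interval 4.00 to 4.39). In knockout it was 5984 CPM (95% interval 5899 to 6069) against 1792 CPM (95% interval 1721 to 1866), a ratio of 3.34 (95% interval 3.20 to 3.49). Within this type 40 of 47 members in wildtype were at least 2-fold higher in the cycling cells, beside 12.9% of all genes, and 42 of 50 in knockout, beside 11.6%. The ratio within the type was smaller than that over all cells, and non-cycling neuroblasts stood at 3.43 and 2.30 times the non-cycling astrocyte level in wildtype and knockout. These neuroblasts also held more cell cycle RNA than non-cycling astrocytes. S phase genes summed to 478 and 463 CPM in them, beside 131 and 119 CPM in astrocytes. Mitosis and G2 genes summed to 166 and 180 CPM, beside 44.2 and 43.6 CPM, and the part of such RNA in the histone level was not tested.

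**Figure D2:**
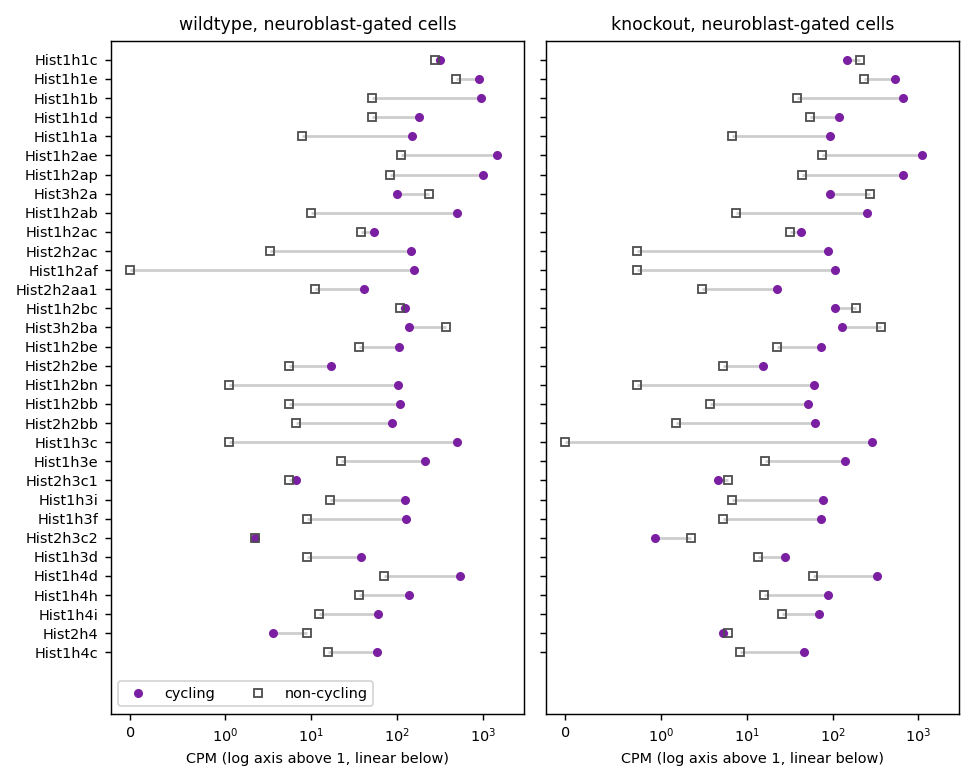
Level in CPM (log axis above 1, linear below) of the 32 members with the most UMIs in cycling (filled circles) and non-cycling (open squares) neuroblast-gated cells, wildtype on the left and knockout on the right. For most members the circle lies far to the right, as for Hist1h3c at 499 against 1.11 CPM in wildtype, whereas for Hist3h2a and Hist3h2ba the square lies to the right.

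The 5 histone proteins differed in how far cycling and non-cycling neuroblasts were apart. H3 members summed to 1146 against 68.8 CPM in wildtype, a ratio of 16.7 (95% interval 13.0 to 21.8), and to 703 against 57.2 CPM in knockout, a ratio of 12.3 (95% interval 9.78 to 15.7). H2A followed with ratios of 7.01 (95% interval 6.39 to 7.71) and 5.46 (95% interval 5.03 to 5.94), and H4 with 5.35 (95% interval 4.51 to 6.38) and 4.50 (95% interval 3.84 to 5.29). H1 stood at 2.87 (95% interval 2.66 to 3.09) in wildtype and 2.87 (95% interval 2.65 to 3.10) in knockout. H2B had the smallest ratios of the 5, 1.75 (95% interval 1.59 to 1.94) and 1.12 (95% interval 1.03 to 1.22), and in its most abundant members, Hist1h2bc and Hist3h2ba, the ratio was near or under 1. Of the H2B level in non-cycling neuroblasts, 558 and 614 CPM, Hist3h2ba held 367 and 369 CPM and Hist1h2bc 108 and 187 CPM. The place of H2B in this order thus rests largely on these 2 of its 18 members.

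The linker histone H1 binds the DNA that enters and leaves the nucleosome. Hist1h1b and Hist1h1a were the H1 members with the largest ratios of cycling over non-cycling neuroblasts. Hist1h1b stood at 937 and 663 CPM in cycling neuroblasts of wildtype and knockout and at 51.0 and 39.1 CPM in non-cycling ones, a ratio of 18.4-fold (95% interval 13.7 to 25.2) and of 17.0-fold (95% interval 12.9 to 22.8). With cells thinned to 3000 UMIs, 67.8% (exact 95% interval 57.1 to 77.2) of the wildtype cycling neuroblasts had a Hist1h1b UMI (88.0% before thinning), against 0.594% (exact 95% interval 0.297 to 1.06) of non-cycling astrocytes. The astrocyte share is given for comparison only, as free RNA was not measured. Hist1h1a, another H1 gene, stood at 147 and 93.1 CPM against 7.76 and 6.77 CPM, a ratio of 19.0-fold (95% interval 9.11 to 47.6) and of 13.8-fold (95% interval 7.15 to 30.4). Both were near 0 in non-cycling glia, Hist1h1b at 2.38 and 1.37 CPM in astrocytes and Hist1h1a at 0.411 and 0.363 CPM. Hist1h1e was high in both states, at 894 and 529.8 CPM in cycling and 476 and 232 CPM in non-cycling neuroblasts. Hist1h1c differed less, at 311 and 148 CPM in cycling against 275 and 209.8 CPM in non-cycling neuroblasts, a ratio of 1.13-fold (95% interval 0.976 to 1.31) in wildtype and 0.707-fold (95% interval 0.609 to 0.823) in knockout. Hist1h1c was also seen in differentiated cells, at 86.9 and 111 CPM in astrocytes, 59.3 and 67.6 CPM in oligodendrocytes and 67.9 and 76.7 CPM in endothelial cells. Hist1h1d stood at 177 and 119 CPM in cycling neuroblasts and at 232 and 111 CPM in non-cycling microglia. It was at 1.56 and 1.12 CPM in astrocytes and 0.467 and 0.651 CPM in oligodendrocytes, so among these glia it was highest in microglia.

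H2A pairs with H2B on the outer faces of the nucleosome. Hist1h2ae had the highest level of any member in cycling neuroblasts of both libraries, 1447 CPM in wildtype and 1093 CPM in knockout, against 111 and 75.2 CPM in non-cycling ones, a ratio of 13.1-fold (95% interval 10.7 to 16.1) and 14.5-fold (95% interval 11.9 to 17.9). A UMI of it was in 64.4% (exact 95% interval 53.7 to 74.3) of thinned wildtype cycling neuroblasts and in 24.2% (exact 95% interval 15.8 to 34.3) of non-cycling ones, against 0.648% (exact 95% interval 0.335 to 1.13) of astrocytes; before thinning these were 85.9%, 44.0% and 2.16%. In knockout they were 66.5% (exact 95% interval 58.4 to 73.8), 19.1% (exact 95% interval 13.3 to 26.1) and 0.448% (exact 95% interval 0.256 to 0.727) after thinning. Hist1h2ae UMIs were thus seen in non-cycling neuroblasts beyond the astrocyte share. Hist1h2ap stood at 989 and 655 CPM in cycling and 82.1 and 43.6 CPM in non-cycling neuroblasts. Hist1h2ab stood at 489 and 255 CPM against 9.98 and 7.52 CPM. Hist1h2af was nearly absent outside cycling cells, with 158 and 106 CPM in cycling and 0 and 0.752 CPM in non-cycling neuroblasts; in wildtype it was at least 47.6-fold higher, the non-cycling cells being at 0 UMIs, taken against a limit of 3 UMIs over the group. Hist2h2ac, of the Hist2 cluster, stood at 145 and 88.5 CPM against 3.33 and 0.752 CPM. Below these, Hist1h2an stood at 89.3 and 38.8 CPM in cycling neuroblasts, Hist1h2ak at 59.8 and 32.5 CPM and Hist2h2aa1 at 40.6 and 22.8 CPM. Under 30 CPM were Hist1h2ad at 23.2 and 9.38 CPM, Hist1h2ag at 13.4 and 16.6 CPM, Hist1h2ai at 20.98 and 5.94 CPM and Hist2h2ab at 6.25 and 2.19 CPM.

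Hist3h2a and Hist1h2ac were less than 2-fold higher, or lower, in cycling than in non-cycling neuroblasts. Hist3h2a was higher in non-cycling neuroblasts, at 235 CPM in wildtype and 271 CPM in knockout, than in cycling ones, at 99.5 and 92.8 CPM, a ratio of cycling over non-cycling of 0.423-fold (95% interval 0.349 to 0.513) and 0.343-fold (95% interval 0.293 to 0.401). It was also seen in differentiated cells, at 37.2 and 54.9 CPM in astrocytes, 46.2 and 49.8 CPM in oligodendrocytes, 38.4 and 51.1 CPM in endothelial cells and 72.9 and 68.9 CPM in microglia. Hist1h2ac stood at 54.0 and 43.1 CPM in cycling and 37.7 and 32.3 CPM in non-cycling neuroblasts, and at 96.1 and 39.6 CPM in microglia.

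Among H2B genes the most abundant member of the whole set, Hist1h2bc, was higher in astrocytes and oligodendrocytes than in cycling neuroblasts. Its level was 307 CPM in wildtype and 413 CPM in knockout astrocytes, 318 and 364 CPM in oligodendrocytes and 113 and 152 CPM in endothelial cells, but 123 and 108 CPM in cycling neuroblasts. Between cycling and non-cycling neuroblasts the ratio was 1.14-fold (95% interval 0.902 to 1.45) in wildtype and 0.576-fold (95% interval 0.488 to 0.681) in knockout. A UMI of it was in 57.7% (exact 95% interval 53.4 to 61.9) and 63.2% (exact 95% interval 59.5 to 66.7) of thinned oligodendrocytes, against 26.7% (exact 95% interval 17.9 to 37.0) and 20% (exact 95% interval 14.0 to 27.2) of thinned cycling neuroblasts. Hist3h2ba, the other gene of the Hist3 cluster, was the most abundant H2B member in non-cycling neuroblasts. It stood at 367 CPM in wildtype and 369 CPM in knockout non-cycling neuroblasts and at 138 and 129 CPM in cycling ones, a ratio of 0.376-fold (95% interval 0.321 to 0.440) and 0.350-fold (95% interval 0.307 to 0.400). It also differed between glia, at 62.0 and 78.6 CPM in oligodendrocytes and 2.01 and 2.37 CPM in astrocytes. Both members of the Hist3 cluster were therefore higher in non-cycling than in cycling neuroblasts in both libraries.

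The other H2B members were higher in cycling than in non-cycling neuroblasts in both libraries by their summed levels, with 10 UMIs or fewer in the non-cycling cells of each library except for Hist1h2be. Hist1h2bb stood at 108 and 51.9 CPM against 5.54 and 3.76 CPM, Hist1h2bn at 101 and 60.3 CPM against 1.11 and 0.752 CPM, and Hist2h2bb at 86.6 and 63.1 CPM against 6.65 and 1.504 CPM. Hist1h2bj was at 80.3 and 42.8 CPM in cycling cells, Hist1h2bm at 79.0 and 48.4 CPM, Hist1h2bg at 34.4 and 23.8 CPM and Hist1h2br at 34.4 and 18.8 CPM. Hist1h2bf was at 24.1 and 14.1 CPM, Hist1h2bh at 20.98 and 16.3 CPM, Hist1h2bp at 12.5 and 7.501 CPM, Hist1h2bk at 5.36 and 10.3 CPM and Hist1h2bl at 8.03 and 5.31 CPM. Hist1h2be was seen in cycling neuroblasts at 106 and 72.5 CPM and in microglia at 127 and 50.6 CPM. Hist2h2be, also of the Hist2 cluster, stood nearly as high in non-cycling astrocytes, at 13.0 and 13.2 CPM, as in cycling neuroblasts, at 17.0 and 15.6 CPM, while oligodendrocytes had 1.28 and 2.06 CPM. In the 12 head-to-head H2A and H2B pairs the H2A gene was the higher in cycling neuroblasts of both libraries in 6. Among the 12, Hist1h2aa and Hist1h2ba had no UMI. Some of the 6 rest on low levels: Hist1h2ao was at 1.34 and 0.938 CPM over Hist1h2bq at 0. In knockout, Hist1h2ai was at 5.94 CPM over Hist1h2bl at 5.31 CPM. The widest such gap was that of Hist1h2ae, at 1447 and 1093 CPM, over Hist1h2bg, at 34.4 and 23.8 CPM, whose starts lie 176 bases apart; this compares captured 3′ ends, which do not scale with transcript length but depend on how often a transcript is polyadenylated.

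H3 carries much of the chromatin marking on its tail. Hist1h3c had the largest ratio of any member in wildtype, with 1118 UMIs or 499 CPM in wildtype cycling neuroblasts against 1 UMI in non-cycling ones, and 920 UMIs or 288 CPM against 0 in knockout. The wildtype ratio, which rests on that 1 UMI, was 450.0-fold (95% interval 80.6 to 17788), and the knockout level was at least 127-fold higher, the non-cycling cells being at 0 UMIs. A UMI of it was in 53.3% (exact 95% interval 42.5 to 63.9) and 46.5% (exact 95% interval 38.4 to 54.6) of thinned cycling neuroblasts. Hist1h3b had the same pattern at lower level, 91.1 and 53.8 CPM in cycling neuroblasts and 0 UMIs in non-cycling ones of either library, so that it was at least 27.4-fold higher, the non-cycling cells being at 0 UMIs in wildtype. Hist1h3e stood at 209 and 138 CPM against 22.2 and 16.5 CPM, Hist1h3f at 128 and 73.1 CPM against 8.87 and 5.26 CPM, and Hist1h3i at 123 and 77.5 CPM against 16.6 and 6.77 CPM. Hist1h3a was at 29.5 and 23.1 CPM in cycling neuroblasts, Hist2h3b at 8.48 and 6.25 CPM and Hist1h3g at 7.59 and 9.06 CPM. Hist1h3d stood at 37.5 and 28.1 CPM in cycling neuroblasts and 55.9 and 17.6 CPM in microglia. Hist2h3c1 and Hist2h3c2 were higher in astrocytes than in cycling neuroblasts. Hist2h3c1 was at 17.7 and 19.4 CPM in astrocytes and 6.69 and 4.69 CPM in cycling neuroblasts. Hist2h3c2 was at 7.77 and 9.44 CPM in astrocytes and 2.23 and 0.938 CPM in cycling neuroblasts.

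H4 forms the nucleosome core with H3. Hist1h4d was the most abundant H4 member in cycling neuroblasts, at 530.2 CPM in wildtype and 326 CPM in knockout, against 69.9 and 58.7 CPM in non-cycling ones, and it remained visible in oligodendrocytes at 25.2 and 17.7 CPM and endothelial cells at 40.3 and 23.4 CPM. Hist1h4h stood at 138 and 87.5 CPM in cycling neuroblasts and at 26.4 and 30.4 CPM in astrocytes and 29.2 and 26.7 CPM in oligodendrocytes, levels at or above the 35.5 and 15.8 CPM of non-cycling neuroblasts in knockout but not in wildtype. Hist1h4i was at 60.3 and 69.4 CPM in cycling neuroblasts and set astrocytes, at 21.1 and 31.8 CPM, apart from oligodendrocytes, at 1.87 and 2.71 CPM. Hist2h4 did likewise, at 9.70 and 10.5 CPM in astrocytes against 0.7003 and 1.63 CPM in oligodendrocytes, with 3.57 and 5.31 CPM in cycling neuroblasts. Hist4h4, the single gene of its cluster, was highest in microglia at 23.9 and 19.8 CPM and stood at 1.79 and 6.56 CPM in cycling neuroblasts. Hist1h4c was at 57.6 and 46.3 CPM in cycling neuroblasts and Hist1h4a at 27.2 and 15.6 CPM. Under 9 CPM there were Hist1h4j at 6.25 and 7.19 CPM, Hist1h4k at 8.48 and 4.38 CPM and Hist1h4n at 3.57 and 3.13 CPM.

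Several members share sequence, and their values are uncertain where the counting could not tell them apart. Hist2h2aa1 and Hist2h2aa2 are identical in the annotated transcripts at the 3′ end, and Hist1h2ap had 0% unique 60-base words in its last 300 bases, as had Hist1h3e and Hist1h3f, which share their 3′ ends. Hist1h1e overlaps Hist1h2be on the same strand, Hist3h2a overlaps Trim17, and Hist2h3c1 and Hist2h2aa1 overlap the predicted gene Gm20634. The last 300 bases of Hist1h2bc, Hist1h1c, Hist1h1b, Hist1h1d, Hist3h2a, Hist3h2ba, Hist1h4d and Hist1h4i were 100% unique by these words. The words compare annotated transcripts and do not cover a same-strand overlap of genes, as that of Hist3h2a with Trim17.

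As classes, members with a short annotated end after the hairpin had a larger ratio of cycling over non-cycling neuroblasts than members with a long one, but single members of the classes overlapped. The 23 members with 100 bases or fewer after the stem-loop summed to 2790.0 against 176 CPM, a ratio of 15.8 (95% interval 13.5 to 18.6), in cycling and non-cycling neuroblasts of wildtype, and to 1692 against 98.5 CPM, a ratio of 17.2 (95% interval 14.4 to 20.6), in knockout. The 23 members with over 100 bases summed to 4352 against 1759.9 CPM, a ratio of 2.47 (95% interval 2.34 to 2.61), and to 2989.9 against 1428 CPM, a ratio of 2.09 (95% interval 1.99 to 2.20). In the long-ended class 4 members (Hist1h1e, Hist1h1c, Hist3h2a and Hist3h2ba) held 1353 and 1082 CPM of the non-cycling level, and without them, a choice made after seeing the data, the ratio was 7.15 (95% interval 6.44 to 7.96) and 6.04 (95% interval 5.49 to 6.65). Long-ended Hist1h2ae and Hist1h3f, the latter at 14.4-fold (95% interval 7.20 to 33.6) in wildtype, lay among the short-ended members, and short-ended Hist1h4h was at 3.90-fold (95% interval 2.70 to 5.80). Of the 23 long-ended members, 16 have a poly(A) signal in the annotated sequence after the hairpin. The 21 members with no stem-loop in the annotated transcript, Hist1h2bc among them, gave ratios of 8.47 and 4.91. In non-cycling microglia the long-ended class gave 80.0% and 83.6% of member UMIs and the short-ended class 6.87% and 5.78%. In cycling neuroblasts the short-ended class gave 30.7% and 28.3%. A longer annotated end also lets more reads be assigned to a gene, and its part in these levels was not tested. The sources used here do not name the annotation release used for counting.

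Within cycling neuroblasts the histone level differed with the balance of S phase and mitosis genes. Cells were called S-leaning with at least 5 more S phase than mitosis and G2 genes detected, G2-leaning with at least 5 fewer, and mixed between. A median of 27 and 26 S phase genes was detected in S-leaning cells of wildtype and knockout, and of 27 and 27 in mixed cells. The S-leaning cells differed from the mixed ones in mitosis and G2 genes, at 14 and 10 against 28.5 and 28. The names thus describe a balance of genes and not a measured phase. The S-leaning cells were low, at 2681 CPM (95% interval 2547 to 2819.8) in 24 wildtype cells and 2239 CPM (95% interval 2123 to 2359) in 37 knockout cells. The mixed cells were highest, at 13729 CPM (95% interval 13479.8 to 13982) in 30 and 9327 CPM (95% interval 9151 to 9506) in 49 cells, 5.12 (95% interval 4.85 to 5.41) and 4.17 (95% interval 3.94 to 4.41) times the S-leaning level. The G2-leaning cells lay between, at 8692 CPM (95% interval 8493 to 8894) in 38 and 4968 CPM (95% interval 4853 to 5085) in 69 cells. Median depth was 22722, 29926 and 21638 UMIs in the S-leaning, mixed and G2-leaning cells of wildtype and 17399, 21954 and 19616 in knockout, and its part was not tested. By cells, 2 of 24 S-leaning, 27 of 30 mixed and 23 of 38 G2-leaning wildtype cells reached 5000 CPM. In knockout these were 3 of 37, 42 of 49 and 31 of 69. Slbp, whose protein holds the stem-loop, was also highest in mixed cells but lowest in G2-leaning ones, at 294, 436 and 137 CPM in S-leaning, mixed and G2-leaning wildtype cells and 320.5, 436 and 165 CPM in knockout.

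**Figure D3:**
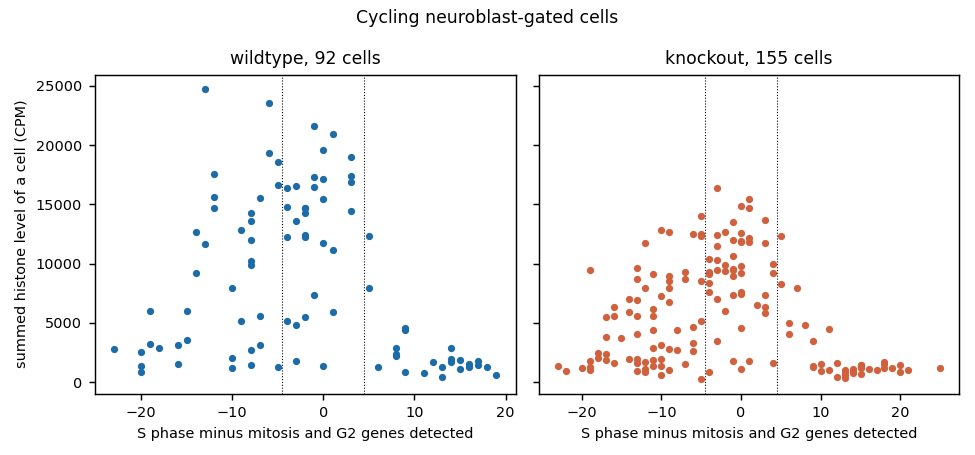
Each point is a cycling neuroblast-gated cell, wildtype on the left and knockout on the right; the x axis is the number of S phase genes minus the number of mitosis and G2 genes detected, the y axis the summed level of the members in CPM, and dotted lines bound the mixed cells. Cells on the right, with more S phase than mitosis and G2 genes detected, lie low (2 of 24 and 3 of 37 reach 5000 CPM). The mixed cells in the middle, with a similar number of S phase genes detected, lie high (27 of 30 and 42 of 49).

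The members shifted unequally along that order. Hist1h2ae was at 279.7 and 351 CPM in S-leaning, 2480.3 and 1898 CPM in mixed and 1193 and 779 CPM in G2-leaning cells of wildtype and knockout. Hist1h3c was at 114 and 79.7 CPM, 768 and 459 CPM and 487 and 243 CPM. Hist1h1b was at 436 and 241 CPM, 1411 and 1142 CPM and 797 and 468 CPM. All 3 peaked in mixed cells. Hist3h2a, in contrast, was at 65.9 and 54.2 CPM, 91.5 and 84.3 CPM and 130.1 and 116 CPM, highest in G2-leaning cells of both libraries. Hist1h1c was at 89.1 and 52.6 CPM, 378 and 181 CPM and 392 and 165 CPM, about level between mixed and G2-leaning cells.

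Across 6 groups (cycling and non-cycling neuroblasts, microglia, astrocytes, oligodendrocytes and endothelial cells), 44 of the 56 members had their highest level in cycling neuroblasts in both libraries. The share of all genes highest there was not counted, and a member could enter the 56 through its UMIs in cycling cells, so the count is descriptive. Hist3h2a and Hist3h2ba were highest in non-cycling neuroblasts in both, and Hist2h3c1, Hist2h3c2 and Hist2h4 in astrocytes in both. Hist1h1c and Hist4h4 were highest in microglia in both. Hist1h1d, Hist1h3d, Hist1h2be and Hist1h2ac were highest in microglia in wildtype and in cycling neuroblasts in knockout, and Hist1h2bc in microglia in wildtype and in astrocytes in knockout. No member was highest in oligodendrocytes or endothelial cells. Neighbours in this order can lie within counting error: for Hist1h2bc in wildtype, microglia stood at 318, oligodendrocytes at 318 and astrocytes at 307 CPM, with overlapping intervals.

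**Figure D4:**
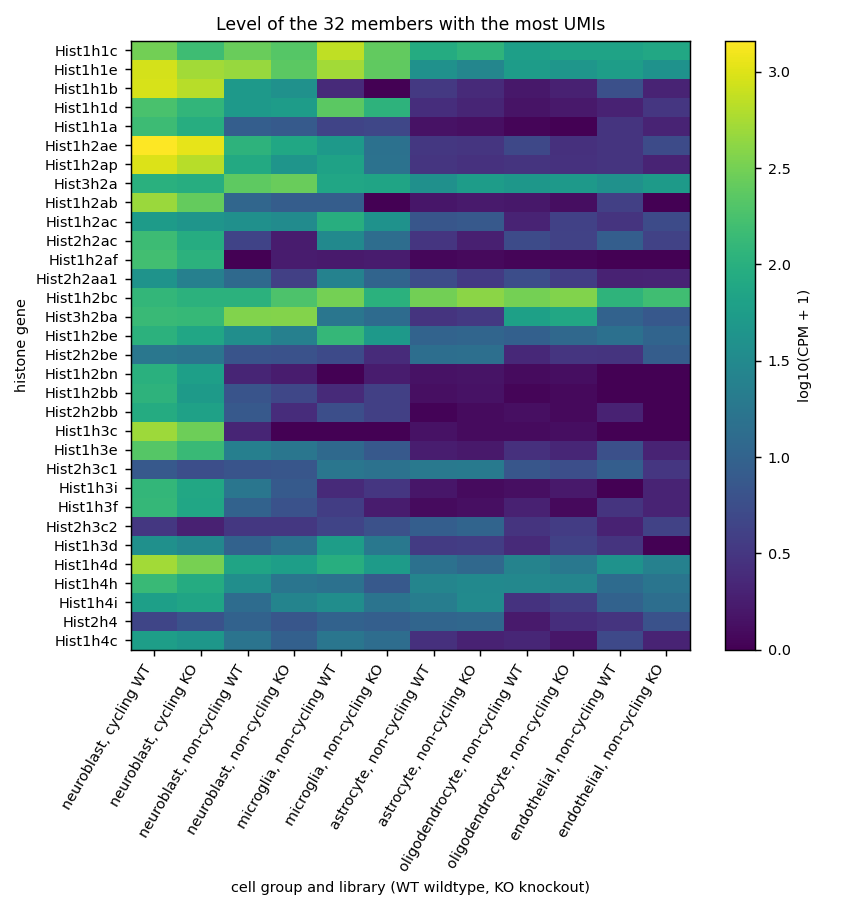
Heat map of log10(CPM + 1) for the 32 members with the most UMIs (rows, grouped by histone) in 6 groups of cells of each library (columns). Most rows are bright in the cycling columns and dark elsewhere; Hist1h2bc is bright in astrocytes and oligodendrocytes, Hist3h2ba in non-cycling neuroblasts (367 and 369 CPM) and oligodendrocytes, and Hist1h1c, Hist1h1e and Hist1h1d in microglia.

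Non-cycling types differed up to several-fold in summed level. Wildtype microglia stood at 2669 CPM (95% interval 2586 to 2754), above the non-cycling neuroblasts. Astrocytes were at 632 CPM (95% interval 622 to 642) in wildtype and 778 CPM (95% interval 769 to 787) in knockout, and oligodendrocytes at 643 CPM (95% interval 626 to 660.4) and 700.4 CPM (95% interval 683 to 718). Endothelial cells were at 422 CPM (95% interval 383 to 464) and 436 CPM (95% interval 394 to 479.9), and T cells at 659 CPM (95% interval 599.9 to 723) and 620.0 CPM (95% interval 560.5 to 684). B-lineage cells, 39 and 49 in number, were at 1786 CPM (95% interval 1647 to 1934) and 909.9 CPM (95% interval 795 to 1037). Ependymal and choroid plexus cells, only 12 and 19 in number, were at 1411 CPM (95% interval 1245 to 1594) and 1924 CPM (95% interval 1753 to 2108). They held Hist1h2bc at 641 and 815 CPM, Hist1h4h at 157 and 499 CPM and Hist1h4i at 163 and 195 CPM, each above its level in cycling neuroblasts, for Hist1h4h in wildtype within counting error. Other types with at least 10 cells in each library, among them NK cells, monocytes, fibroblasts and mural cells, lay between 248 and 1735 CPM. In astrocytes the 5 most abundant members gave 78.6% and 82.4% of member UMIs, and in cycling neuroblasts 52.9% and 54.6%. Hist1h2bc alone gave 48.6% and 53.1% in astrocytes, whereas Hist1h2ae, first in cycling neuroblasts, gave 15.9% and 18.3% there. In microglia linker histones made up most of the level: H1 members summed to 1496 CPM of the 2669 in wildtype and 609 of 1142 in knockout, against 131 of 632 and 141 of 778 in astrocytes. In these microglia mitosis and G2 genes summed to 57.9 and 49.9 CPM, beside 44.2 and 43.6 CPM in astrocytes, and S phase genes to 177 and 171 CPM, beside 131 and 119 CPM.

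Between the libraries, the largest difference among types with at least 100 cells in each was in non-cycling microglia. Of the smaller types, monocytes (17 and 44 cells) were at 0.323 (95% interval 0.280 to 0.373) times wildtype. B-lineage cells were at 0.509 (95% interval 0.435 to 0.594) and NK cells at 0.586 (95% interval 0.454 to 0.754). T cells and mural cells had intervals that include 1, and fibroblasts, erythroid and ependymal and choroid plexus cells were higher in knockout. In microglia the knockout level, 1142 CPM (95% interval 1086 to 1201), was 0.428 (95% interval 0.403 to 0.454) times the wildtype level. Hist1h1c stood at 722 and 249 CPM, a knockout over wildtype ratio of 0.345 (95% interval 0.305 to 0.391). Hist1h1e stood at 534 and 245 CPM, a ratio of 0.458 (95% interval 0.402 to 0.521), and Hist1h2bc at 318 and 103 CPM, a ratio of 0.325 (95% interval 0.268 to 0.394). Hist3h2a, at 72.9 and 68.9 CPM, was within counting error of equal. Of 24 members with at least 20 UMIs, 17 were at least 1.5-fold lower in knockout, where 9.84% of all genes were, and 0 were at least 1.5-fold higher, where 9.09% were. The median log2 ratio was -1.12 beside 0.00 over all genes. The difference was spread over cells, with a median cell at 1733 CPM in wildtype and 782 in knockout, and 160 of 236 against 112 of 282 cells at 1000 CPM or more. The microglial markers summed to 24084 and 23152 CPM and the median mitochondrial share was 1.31% and 1.31%. Depth and erythroid RNA differed with the library: the median microglial cell had 6936 and 5296 UMIs, and the 8 erythroid markers summed to 18843 and 2239 CPM in it. The same markers summed to 10138 and 2548 CPM in oligodendrocytes and to 9237 and 10489 CPM in astrocytes. Over the cells with at least 3000 UMIs, each thinned to 3000 after gating, the ratio was 0.415. Thinning evens the weight of cells but leaves the gate as it was, so the parts of depth and of erythroid RNA were not tested.

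In cycling cells the summed level was also lower in the knockout library. Over all cycling cells the ratio was 0.682 (95% interval 0.671 to 0.694), and over cycling neuroblasts 0.659 (95% interval 0.646 to 0.672). Of 54 members with at least 20 UMIs, 29 were at least 1.5-fold lower in knockout, beside 13.2% of all genes, and 2 (Hist4h4 and Hist1h2bk) were at least 1.5-fold higher, beside 4.51%. By the balance of S phase and mitosis genes the ratio was 0.835 (95% interval 0.776 to 0.899) in S-leaning, 0.679 (95% interval 0.662 to 0.698) in mixed and 0.572 (95% interval 0.553 to 0.591) in G2-leaning neuroblasts. Among ungated cycling cells it was 0.912 (95% interval 0.877 to 0.947). Hist1h2ab at 489 and 255 CPM had a ratio of 0.521 (95% interval 0.476 to 0.571), Hist1h1c of 0.478 (95% interval 0.424 to 0.538) and Hist1h2ae of 0.755 (95% interval 0.720 to 0.793), while Hist3h2a and Hist3h2ba stood at 0.933 (95% interval 0.781 to 1.11) and 0.938 (95% interval 0.808 to 1.09). Hist4h4 went the other way at low level, at 1.79 and 6.56 CPM, a ratio of 3.68 (95% interval 1.24 to 14.7). Mitosis and G2 genes summed to 13192 and 13038 CPM and S phase genes to 4686 and 4479 CPM in these cells. Single cell cycle genes differed more, Mki67 at 1068 and 732 CPM and the replication clamp gene Pcna at 631 and 513 CPM. The 8 neuroblast markers also differed, at 8216 and 6939.6 CPM summed, with Dcx at 583 and 372 CPM, and their part in the histone difference was not tested. In non-cycling neuroblasts the ratio was 0.828 (95% interval 0.780 to 0.879), and 6 of 19 members (Hist1h1e, Hist1h2ap, Hist1h2be, Hist1h3i, Hist1h4c and Hist1h4h) were at least 1.5-fold lower, beside 16.3% of all genes, and 3 (Hist1h2bc, Hist1h3d and Hist1h4i) at least 1.5-fold higher, beside 7.99%. Hist1h1e there was at 476 and 232 CPM, a ratio of 0.489 (95% interval 0.421 to 0.567), and Hist1h2bc went the other way, at 108 and 187 CPM, a ratio of 1.73 (95% interval 1.37 to 2.22).

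In astrocytes the summed level was higher in knockout, at 1.23 (95% interval 1.21 to 1.26) times wildtype. Hist1h2bc stood at 307 and 413 CPM, a ratio of 1.35 (95% interval 1.31 to 1.38), and Hist3h2a, Hist1h4i and Hist1h1c at ratios of 1.47 (95% interval 1.36 to 1.60), 1.51 (95% interval 1.36 to 1.67) and 1.28 (95% interval 1.22 to 1.35). Hist1h1e and Hist1h4d were lower, at 0.687 (95% interval 0.628 to 0.752) and 0.766 (95% interval 0.661 to 0.889). Of 35 members with enough UMIs, 1 (Hist1h4i) was at least 1.5-fold higher in knockout, a share near the 4.35% of all genes. At least 1.5-fold lower were 7 members, beside 12.2% of all genes: Hist2h2ac, Hist1h3i, Hist2h2aa1, Hist1h1b, Hist1h4c, Hist1h2ad and Hist1h2bg, none above 4.48 CPM in either library. The median log2 ratio was 0.02 beside -0.12. Oligodendrocytes were at 1.09 (95% interval 1.05 to 1.13), with 5 of 21 members at least 1.5-fold higher beside 3.71% of all genes. These 5, named after their values were seen, were Hist1h2ac, Hist1h3d, Hist2h4, Hist4h4 and Hist2h2be, none above 3.04 CPM in either library. The 95% intervals of Hist2h4 (0.852 to 7.31), Hist4h4 (0.782 to 4.25) and Hist2h2be (0.726 to 3.74) include 1. Those of Hist1h2ac (1.33 to 6.97) and Hist1h3d (1.07 to 4.68) do not. Another 2 members, Hist1h2ae at 0.451 (95% interval 0.232 to 0.843) and Hist2h2aa1 at 0.596 (95% interval 0.346 to 1.01), were at least 1.5-fold lower, beside 7.69% of all genes. The 2 most abundant members there, Hist1h2bc and Hist3h2ba, were at 1.14 (95% interval 1.09 to 1.20) and 1.27 (95% interval 1.13 to 1.42). Without Hist1h2bc the oligodendrocyte ratio was 1.03 with an interval that includes 1. Endothelial cells were at 1.03 (95% interval 0.899 to 1.18).

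**Figure D5:**
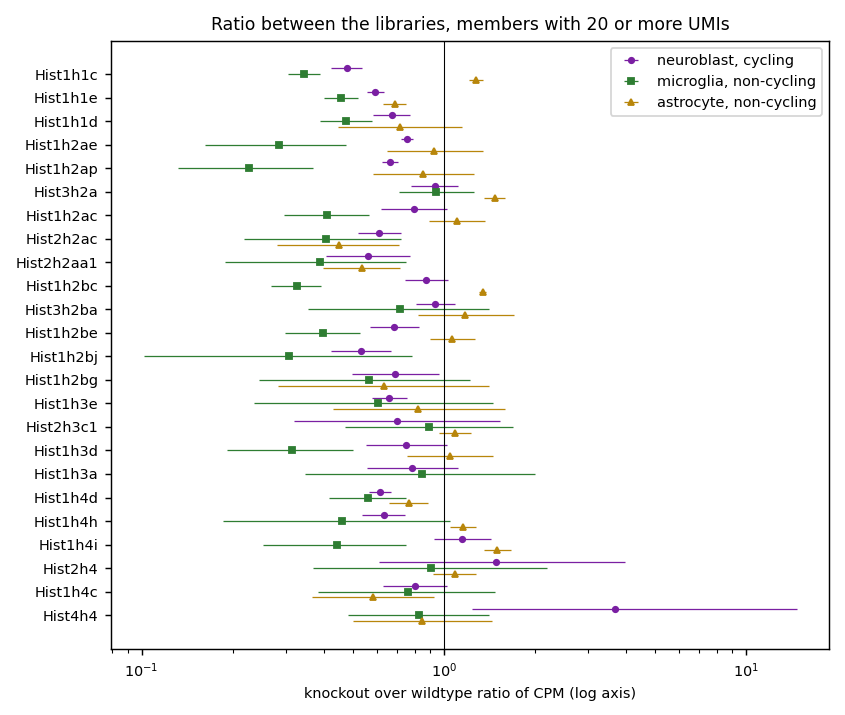
Knockout over wildtype ratio of CPM (log axis) for the 24 members with at least 20 UMIs in microglia, in cycling neuroblasts (circles), non-cycling microglia (squares) and non-cycling astrocytes (triangles); bars are exact 95% intervals for counting error, and groups with fewer than 20 UMIs of a member are left out. The microglial squares lie left of 1, as for Hist1h1c at 0.345, while its astrocyte triangle lies at 1.28.

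The genes that make, carry and replace these histones were taken from 3 lists. Of 15 genes of histone 3′ end processing and transcription, 14 had at least 20 UMIs in the wildtype neuroblasts. In cycling over non-cycling neuroblasts 3 of these were at least 2-fold higher in wildtype and 4 in knockout, beside 12.9% and 11.6% of all genes, with none at least 2-fold lower. They were Slbp, Casp8ap2 and E2f1 in both libraries and Eri1 in knockout, E2f1 being named after its values were seen. Slbp was at 289 against 58.8 CPM in wildtype, 4.91-fold, and 5.79-fold in knockout. Casp8ap2, a protein of the histone locus body, was at 2.51-fold and 2.09-fold. Yy1, Pou2f1 and the cleavage factor gene Cpsf2 were at 1.14, 0.851 and 1.93 in wildtype and 0.957, 0.975 and 1.80 in knockout, and the exonuclease gene Eri1 at 1.77 and 2.38.

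Of 17 histone chaperone genes, 9 were at least 2-fold higher in cycling neuroblasts in each library, beside the same 12.9% and 11.6% of all genes, and none 2-fold lower, with a median log2 ratio of 1.23 and 1.15. Mcm2, on this list, is also an S phase gene of the cycling gate, so that the gate partly fixed its ratio. Nasp, which escorts H3 and H4, was at 4.67 and 3.21-fold and Nap1l1, which escorts H2A and H2B, at 2.82 and 2.49-fold. Npm1, Rbbp4 and Supt16 stood at 1.68, 1.87 and 1.94 in wildtype and 1.67, 1.92 and 1.46 in knockout. Atrx, which works with the H3.3 chaperone Daxx, was lower in cycling neuroblasts, at 0.630 (95% interval 0.576 to 0.690) and 0.672 (95% interval 0.615 to 0.734). Of 11 genes listed as replication-independent variants, 5 were at least 2-fold higher in each library, beside 12.9% and 11.6% of all genes. These were H2afx, H2afz, H2afv, H1fx and Cenpa, the last of which is also a cell cycle gene of the gate, so that the gate partly fixed its call. Whether each listed gene, H2afx among them, is independent of replication was not tested. H2afz was at 3889.7 against 528 CPM in wildtype, 7.37-fold, and 5.67-fold in knockout. H2afx was at 23.9 and 19.3-fold and H2afv at 3.99 and 3.38-fold. The H3.3 genes did not share this, H3f3a being at 0.894 and 0.780 and H3f3b at 1.40 and 1.34. The most abundant H3 member in cycling neuroblasts, Hist1h3c, was captured at 499 CPM there in wildtype, beside 4378 CPM of H3f3b.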

How the data were processed

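Single-cell RNA was counted in 2 libraries, 1 per genotype, and the deposited files hold the UMI counts per gene and cell, per the file headers. The submitters' processing notes name Cell Ranger 4.0.0, Seurat 3.0, R 4.0.3 and the build mm10; no source used here names the annotation release behind the counts. Kept cells had 500 genes or more and a mitochondrial share of UMIs of 20% or less. Scrublet (in scanpy 1.11.5) set its own threshold at 0 and 4 doublets, which did not work, so the highest scores were removed at 0.8% per 1000 cells (212 wildtype and 448 knockout cells). Counts were summed per library and group of cells and given as CPM, with exact Poisson intervals for levels, exact conditional binomial intervals for ratios and exact Clopper-Pearson intervals for shares, all at 95% (scipy 1.17.1). These cover counting error only, and a level of 0 was set to 3 UMIs over the group for a ratio. A gene entered a count of genes past a fold with at least 20 UMIs in the cells compared; the folds were 2 for cycling and 1.5 between libraries. No test across samples was possible with 1 library per group. For shares of cells with a UMI, each cell was thinned to 3000 UMIs, which left out 1553 wildtype and 1270 knockout cells. The intervals were run on simulated Poisson counts, the model they assume, so this run could not show how differences between cells or mice affect them. Members and gene lists were chosen with earlier results of these data known, and the gate thresholds were set after seeing the data. Every member with at least 50 UMIs over both libraries was named with its values, a member with fewer only where it had at least 5 UMIs in a cycling group or a type, and of each other list up to 6 genes with the most UMIs in cycling cells. Gene models and stem-loops are from GENCODE M21 transcripts and promoters from RefSeq GRCm38.p6. The alternatives were other filters, gates, weighting, thinning and left-out members.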

Additional observations from a re-analysis of the deposited data

Results flagged for a closer look

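In 4 pairs of cell types the knockout over wildtype ratios of the summed histone level lay on opposite sides of 1, and the difference between them was not tested because each genotype has 1 library. The astrocyte ratio was 2.88 times the microglial ratio, and the oligodendrocyte ratio was 2.54 times it. Against non-cycling neuroblasts the astrocyte ratio was 1.49 times and the oligodendrocyte ratio 1.32 times as large. Hist1h2bc shows the pattern within 1 gene: it was lower in knockout microglia (318 and 103 CPM in wildtype and knockout) and higher in knockout astrocytes (307 and 413 CPM). Hist1h1c did likewise, at 722 and 249 CPM in microglia and 86.9 and 111 CPM in astrocytes.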

How the results depend on the processing

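The counts of members at least 2-fold higher in cycling cells stayed within 1.5 times their values under every alternative run, at 34 to 54 in wildtype and 36 to 54 in knockout. A ratio was labelled the same if it lay inside the counting interval of its main value. A count of members has no such interval and was labelled the same within 1.5 times. By these rules 64 of 105 values under alternatives were the same, all the counts among them, 41 moved by more and 0 turned direction. Only the all-cell ratios without Hist1h2bc moved by over 1.5 times, since that member is abundant in non-cycling glia. The oligodendrocyte knockout over wildtype ratio had an interval that includes 1 without Hist1h2bc and with thinned cells. For the other moves the cause was not tested. With no filter on genes or mitochondrial share, the cycling over non-cycling ratio was 11.9 (wildtype, all cells) and 7.77 (knockout, all cells). With limits of 1000 genes and a 10% mitochondrial share, the cycling over non-cycling ratio was 10.3 (wildtype, all cells) and 6.87 (knockout, all cells). With a looser cycling gate of at least 10 of 60 genes, the cycling over non-cycling ratio was 8.67 (wildtype, all cells), 6.46 (knockout, all cells), 3.94 (wildtype neuroblasts) and 3.10 (knockout neuroblasts) and the knockout over wildtype ratio 0.762 (cycling cells). With a stricter gate of at least 30 of 60 genes, the cycling over non-cycling ratio was 11.5 (wildtype, all cells), 7.67 (knockout, all cells), 4.42 (wildtype neuroblasts) and 3.53 (knockout neuroblasts). With the gate from mitosis and G2 genes alone (at least 10 of 30, non-cycling at most 4), the cycling over non-cycling ratio was 11.3 (wildtype, all cells), 7.66 (knockout, all cells), 4.42 (wildtype neuroblasts) and 3.76 (knockout neuroblasts). With each cell weighed the same, the cycling over non-cycling ratio was 8.82 (wildtype, all cells), 6.77 (knockout, all cells), 4.53 (wildtype neuroblasts) and 3.76 (knockout neuroblasts) and the knockout over wildtype ratio 1.17 (astrocytes), 0.473 (microglia) and 1.03 (oligodendrocytes). With cells thinned to 3000 UMIs, the cycling over non-cycling ratio was 10.1 (wildtype, all cells), 4.42 (wildtype neuroblasts) and 3.03 (knockout neuroblasts) and the knockout over wildtype ratio 1.28 (astrocytes), 0.695 (cycling cells) and 1.03 (oligodendrocytes). Without Hist1h2bc, an alternative added after seeing the data, the cycling over non-cycling ratio was 16.5 (wildtype, all cells), 12.7 (knockout, all cells) and 3.66 (knockout neuroblasts) and the knockout over wildtype ratio 1.12 (astrocytes) and 1.03 (oligodendrocytes). Without the 7 members that overlap another gene on the same strand, also added after seeing the data, the cycling over non-cycling ratio was 11.5 (wildtype, all cells), 7.35 (knockout, all cells), 5.74 (wildtype neuroblasts) and 4.21 (knockout neuroblasts) and the knockout over wildtype ratio 1.27 (astrocytes) and 0.397 (microglia). No paired analysis was possible because each genotype has 1 library. Depth limits the members with few UMIs, and intervals cover counting error only: with 1 library of pooled cortices per genotype, the spread between mice is unknown. Alternatives that leave out a replicate do not apply.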

Other observations

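Some cells rich in histone transcripts lay outside the cycling gate. With a level of at least 5000 CPM from at least 20 member UMIs, 62 of 125 cycling cells in wildtype and 97 of 215 in knockout were histone-rich, and so were 28 of 4756 non-cycling cells in wildtype and 10 of 6761 in knockout. Of these non-cycling cells, 25 in wildtype and 5 in knockout were microglia. The median depth of the histone-rich non-cycling cells was 8428.5 UMIs in wildtype and 6275.5 UMIs in knockout, and that of the histone-rich cycling cells 26638.5 and 21500 UMIs.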
